A study of Danio rerio with 4 samples.

Results

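On zebrafish chromosome 20 the gene for ccn2a, a secreted matricellular protein, lies between moxd1 on one side and a cluster of cytochrome P450 genes of family 2 (Cyp2) on the other. The genes described here are moxd1 and 8 Cyp2 genes, cyp2n13, cyp2ad6, cyp2v1, cyp2ad3, cyp2p6, cyp2p7, cyp2p10 and cyp2j20, which are 9 of the 19875 genes in the deposited table. They were picked by position and name from the genes that start within 1 Mb of ccn2a, with earlier results of these data known. They are not all the genes there, and the Cyp2 models cyp2ad2 and cyp2p8 are among those left out. Messenger RNA was sequenced from cardiac ventricles of ccn2a-/- zebrafish (2 libraries) and of wild-type zebrafish (2 libraries), all taken 4 days after injury, with atrium and bulbus arteriosus removed, per the labels. The labels give neither the ccn2a lesion, the strain, the age nor the number of hearts in a library, so the spread between libraries of a genotype may be technical. Every pair of libraries differed by more than counting error as a mean over genes. The mean chi-square per gene on approximate read counts was at least 22.5 in each pair, a mean that need not hold for any 1 gene. The source of that spread was not tested.

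Cytochrome P450 enzymes are haem proteins that insert an oxygen atom into lipids, steroids and foreign compounds, with electrons passed on by partner proteins such as P450 oxidoreductase. The Cyp2 genes beside ccn2a are fish relatives of the mammalian CYP2J genes. In mammals CYP2J enzymes turn arachidonic acid into epoxyeicosatrienoic acids, which act on blood vessels and heart muscle. The gene moxd1 belongs to another enzyme class, the copper-dependent monooxygenases related to dopamine beta-hydroxylase, and the substrate of its product is not established. The deposited table places cyp2p6, cyp2p7, cyp2p10 and cyp2j20 in arachidonic acid and linoleic acid metabolism and gives the other Cyp2 genes no pathway.

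Each value is a read count for a gene, scaled by the authors with a size factor for its library and rounded, and is called a normalised count below. The mutant libraries held about 18.8 and 18.1 M reads and the wild-type libraries 17.2 and 21.5 M, in replicate order as everywhere below. The ccn2a transcript, ctgfa in the table, had normalised counts of 3070 and 1473 in ccn2a-/- ventricles, against 4737 and 4411 in wild-type ventricles. Its log2 fold change was -1.10 (SE 0.355), which did not pass (limma, adjusted p = 0.381), so the transcript level is only a weak check on these labels. Among markers, the 8 cardiomyocyte genes summed to 845236 and 748559 in the mutants and to 642588 and 403277 in wild type. By log2 fold change 6 of them were higher and 2 lower in the mutants, and 0 had an unadjusted p under 0.05 (limma). All 8 erythrocyte genes were higher in the mutants by log2 fold change, 5 with an unadjusted p under 0.05, with sums of 260054 and 229257 in the mutants and 159056 and 122545 in wild type. All 7 endothelial genes were higher too, 3 with an unadjusted p under 0.05, and none of these marker genes passed (limma). Of all genes tested, 5.89% were higher in the mutants with an unadjusted p under 0.05. Of 6 macrophage markers 4 were lower and 2 higher in the mutants by log2 fold change, and so were those of 6 neutrophil markers. The share of mitochondrial-genome transcripts was 14.7% and 13.6% in the mutants and 13.4% and 7.66% in wild type, so wild-type replicate 2 stood apart. The part of these differences in the values below was not tested.

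All 9 genes reached the mean normalised count of 10 needed for a test, cyp2j20 only through its wild-type values. The gene cyp2n13 reached it only through its 45 in mutant replicate 1, beside 6, 4 and 15 in the other libraries. None passed an adjusted p of 0.05 (limma-trend over 16730 genes), where 0 genes, or 0% of those tested, passed at all and the smallest adjusted p was 0.207. An unadjusted p under 0.05 was reached by 3 of the 9, namely moxd1, cyp2j20 and cyp2v1, against 12.8% of all genes tested (2145). With limma voom on approximate reads, 0 genes passed and 2452 had an unadjusted p under 0.05. Both mutant libraries lay below both wild types for 3 of the 9 genes, moxd1, cyp2p10 and cyp2j20, against 25.7% of all genes. Both lay above for 1, cyp2v1, against 26.6%. The groups thus did not overlap for 4 of 9 genes, against 52.3% of all genes, so as a set these genes did not separate the genotypes more often than other genes did. The median log2 fold change of the 9 was 0.46, against 6.28e-05 over all genes tested.

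The gene models bear on how these values can be read. Coordinates are those of the deposited table, whose build is unsettled, since the processing notes name GRCz10 while the table's largest coordinate, 78048911 on chromosome 4, lies past the end of that chromosome in GRCz10. The gene moxd1 (ENSDARG00000031136, forward strand) spans 25225112 to 25271878 and ends 68.9 kb before ccn2a, which occupies 25340814 to 25343490. The first Cyp2 model, cyp2n13 (ENSDARG00000042953, reverse strand), begins 172 kb after ccn2a at 25515259, and the cluster as a whole spans 101 kb. No other model of the table overlaps moxd1, cyp2n13 or cyp2p6 (ENSDARG00000042978, forward strand, 25563105 to 25568441).

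The other 6 genes share bases with at least 1 other model, by spans from start to stop that include introns. Whether the exons of these models overlap was not examined. On the forward strand, cyp2p7 (ENSDARG00000042980) is annotated from 25568694 to 25615727, a span of 47.0 kb. It encloses the whole of cyp2p10 (ENSDARG00000042990, 25586099 to 25593607) and of cyp2p8, and 99.6% of cyp2j20 (ENSDARG00000094057, 25597527 to 25615802), all on the same strand. On the opposite strand it also encloses the noncoding BX322665.2, at 10 and 10 in the mutants and 6 and 3 in wild type. Across the strands, cyp2v1 (ENSDARG00000018485, 25533064 to 25558418, forward) encloses cyp2ad3 (ENSDARG00000022650, 25548425 to 25551676, reverse) and cyp2ad2. It also shares 676 bases with cyp2ad6 (ENSDARG00000042956, 25525802 to 25533739, reverse), at the edge where each gene starts. RefSeq (GRCz12tu) lists cyp2p7, cyp2p8, cyp2p9, cyp2p10 and cyp2j20 as separate neighbours in that order, and cyp2p9 was not analysed here. The library kit keeps strand, per the labels, but neither the strand setting of the counting nor its treatment of reads in shared bases is given in the sources used here. Cyp2 copies of one subfamily are also alike in sequence, so the values of cyp2p7, cyp2p10 and cyp2j20 in particular may hold or lack reads of one another.

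**Figure D1:**
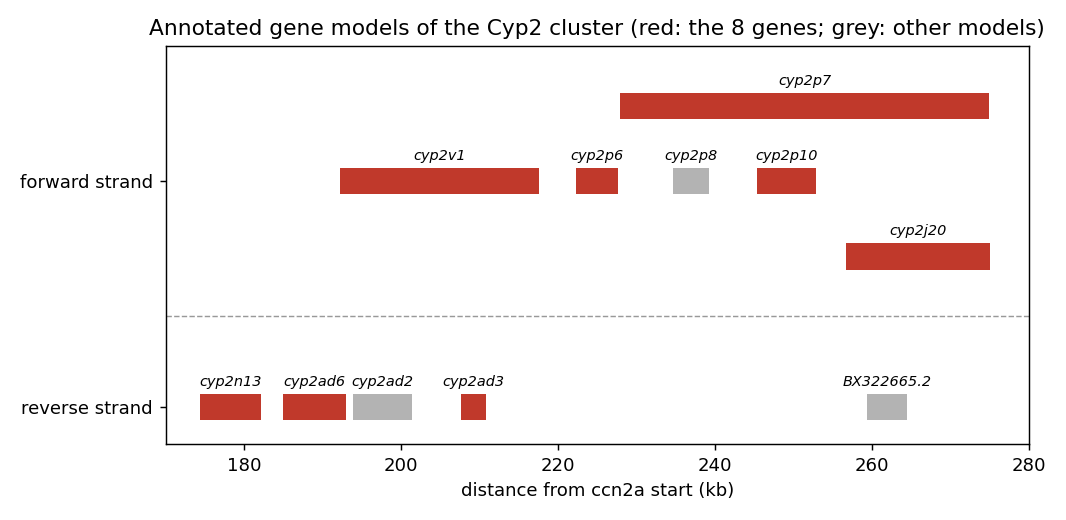
Annotated models of the Cyp2 cluster against distance from the start of ccn2a in kb, with the forward strand above the dashed line and the reverse strand below it. Red bars are the 8 genes described and grey bars other models of the table; the cyp2p7 bar covers cyp2p8, cyp2p10 and cyp2j20 on its own strand, and cyp2v1 faces cyp2ad2 and cyp2ad3 on the opposite strand.

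The copper monooxygenase gene moxd1 was the clearest of the 9. It had normalised counts of 293 and 341 in ccn2a-/- ventricles, against 1179 and 1285 in wild-type ventricles. Each genotype held together closely, within a factor of 1.16 in the mutants and 1.09 in wild type, and the groups were far apart. The means were 317 ± 33.9 in the mutants and 1232 ± 75.0 in wild type (SD, n = 2 each), with a log2 fold change of -1.96 (SE 0.204). The level was 3.88-fold lower in the mutants, and the gene ranked at place 5 of 16730 by p, but it did not pass (limma, unadjusted p = 7.12e-05, adjusted p = 0.207). Without each library in turn the log2 fold change lay between -2.07 and -1.85. About 256 and 323 reads in the mutants and 1123 and 1696 in wild type stood behind these values, so counting error is small beside the difference.

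Among 13021 other genes with a mean of 50 or more, those whose profile over the 4 libraries lay nearest to moxd1 were ppp1r14ba, btr20 and mrc2. Likeness was the Euclidean distance between log2(value + 1) profiles centred on each gene's mean, and it was 0.100, 0.118 and 0.312 for these genes. The phosphatase inhibitor gene ppp1r14ba had 59 and 72 in ccn2a-/- ventricles, against 237 and 248 in wild-type ventricles. The tripartite-motif gene btr20 had 19 and 22 in ccn2a-/- ventricles, against 72 and 87 in wild-type ventricles. The collagen-binding receptor gene mrc2 had 21 and 26 in ccn2a-/- ventricles, against 91 and 126 in wild-type ventricles. They lie on chromosomes 21, 19 and 3, away from the ccn2a locus, and none passed (limma, adjusted p = 0.381 for each). With 4 libraries, any gene that splits the genotypes by a like amount has a like profile.

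**Figure D2:**
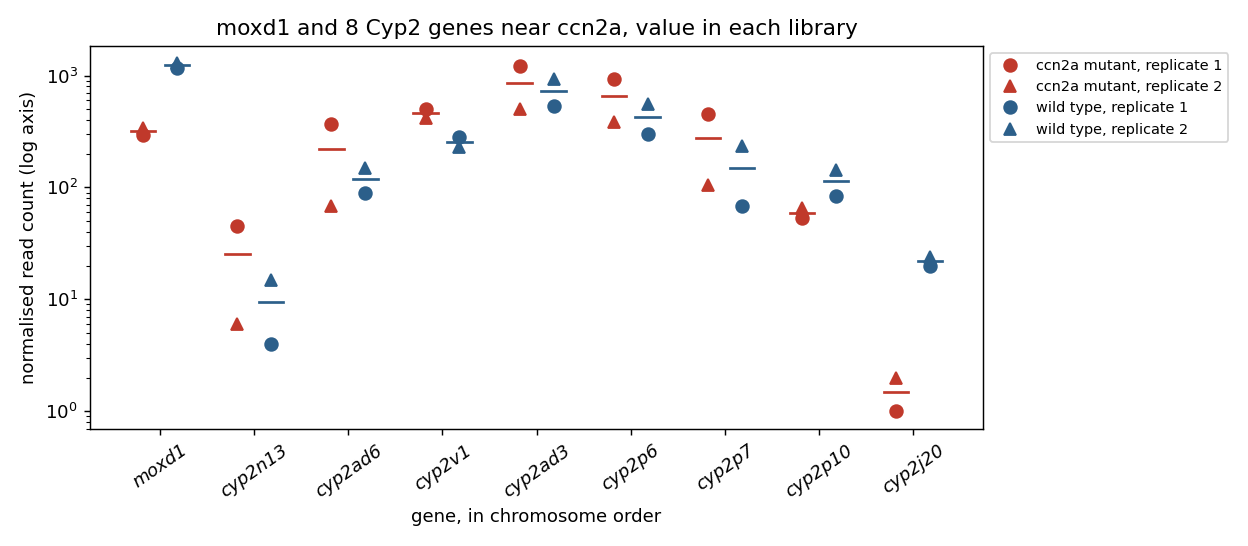
Normalised read count (log axis) of moxd1 and the 8 Cyp2 genes in each library, mutants in red and wild types in blue, circles for replicate 1, triangles for replicate 2, short lines for the group means. The moxd1 points fall into 2 tight pairs, at 293 and 341 in the mutants and 1179 and 1285 in wild type, whereas for cyp2ad6 and cyp2p7 the points of each genotype lie far apart.

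The Cyp2 genes did not share one pattern. The groups did not overlap for 3 of the 8, against 52.3% of all genes tested. The 2 genes at the far end of the cluster, cyp2j20 and cyp2p10, were lower in the mutants. The gene cyp2j20, named after the mammalian CYP2J group, had 1 and 2 in ccn2a-/- ventricles, against 20 and 24 in wild-type ventricles. It was close to undetected in both mutant libraries and low but steady in both wild types. Approximate reads summed to 3 in the mutants and 51 in wild type, and the rate per size factor was 13.6 times higher in wild type, with an exact 95% counting interval from 4.40 to 68.2 that leaves out the spread between samples. The fitted log2 fold change was -3.23 (SE 0.697) and did not pass (limma, unadjusted p = 0.00356, adjusted p = 0.381). As cyp2j20 reached the mean of 10 only through wild type, a test of it could hardly show anything but a lower mutant level.

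The neighbouring cyp2p10 had 53 and 66 in ccn2a-/- ventricles, against 84 and 144 in wild-type ventricles. The groups did not overlap, but wild-type replicate 2 stood well above wild-type replicate 1. The means were 59.5 ± 9.19 in the mutants and 114 ± 42.4 in wild type (SD, n = 2 each), with a log2 fold change of -0.88 (SE 0.389; limma, unadjusted p = 0.0634, adjusted p = 0.391). Without wild-type replicate 2 the log2 fold change was -0.50.

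The gene cyp2v1, on the forward strand opposite cyp2ad2 and cyp2ad3, went the other way. It had 506 and 415 in ccn2a-/- ventricles, against 283 and 228 in wild-type ventricles. Both genotypes held together within a factor of 1.24, and all mutant values lay above all wild-type values. The means were 460.5 ± 64.3 in the mutants and 255.5 ± 38.9 in wild type (SD, n = 2 each), a level 1.80-fold higher, with a log2 fold change of 0.85 (SE 0.243; limma, unadjusted p = 0.0129, adjusted p = 0.381). Its values did not follow those of cyp2ad3, the model it encloses, which differed 2.46-fold between the 2 mutant libraries while cyp2v1 differed 1.22-fold.

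The remaining 5 Cyp2 genes, cyp2n13, cyp2ad6, cyp2ad3, cyp2p6 and cyp2p7, varied between the libraries of a genotype more than between genotypes. The gene cyp2ad3 had 1226 and 498 in ccn2a-/- ventricles, against 537 and 925 in wild-type ventricles. The gene cyp2p6 had 928 and 384 in ccn2a-/- ventricles, against 301 and 553 in wild-type ventricles. The gene cyp2p7 had 451 and 105 in ccn2a-/- ventricles, against 68 and 233 in wild-type ventricles. In each, mutant replicate 1 was the highest library and wild-type replicate 2 the next, while mutant replicate 2 and wild-type replicate 1 were both low.

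The same order held for cyp2ad6, with 371 and 68 in ccn2a-/- ventricles, against 90 and 148 in wild-type ventricles. It held too for the scarce cyp2n13, with 45 and 6 in ccn2a-/- ventricles, against 4 and 15 in wild-type ventricles. Mutant replicate 1 exceeded mutant replicate 2 by factors from 2.42 for cyp2p6 to 7.50 for cyp2n13, which was tested only through mutant replicate 1. The log2 fold changes between genotypes ran from 0.15 (SE 0.475) for cyp2ad3 to 1.00 (SE 1.08) for cyp2n13, and adjusted p ran from 0.584 to 0.897 (limma). Each of these 5 fold changes turned negative without mutant replicate 1, at -0.50 for cyp2ad3, -0.09 for cyp2p6, -0.26 for cyp2p7, -0.76 for cyp2ad6 and -0.35 for cyp2n13. Those of cyp2ad3 and cyp2p7 were also negative without wild-type replicate 1, at -0.24 and -0.10. The 2 further Cyp2 models of the cluster, below the mean of 10, had their highest value in mutant replicate 1 as well. These were cyp2ad2, at 21 and 4 in the mutants and 7 and 7 in wild type, and cyp2p8, at 9 and 1 in the mutants and 1 and 3 in wild type.

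This order of libraries, noticed after the values were seen, was held by 5 of the 9 genes and by 6.55% of all genes tested (1096 of 16730). A value at least 2-fold higher in mutant replicate 1 than in mutant replicate 2 was found in the same number, 5 of 9, against 3.84% of all genes. Both counts include cyp2n13, which entered the test only through mutant replicate 1, so a high value there was largely fixed in advance. Among 40 other P450 genes tested, taken by symbol, 1 held the order and 13 were highest in mutant replicate 1. That share was near the 33.9% of all genes tested that were highest there. The genes are family members in one cluster and some of their annotated spans overlap, so they cannot be counted as independent of each other. How alike their sequences are was not computed.

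The profile nearest to cyp2ad3, the Cyp2 gene with the highest mean, was that of cipcb, followed by the collagen I genes col1a1a and col1a1b, at distances of 0.0778, 0.142 and 0.178 on the log2 scale. The gene cipcb, named for a partner of the clock protein, had 794 and 326 in ccn2a-/- ventricles, against 363 and 580 in wild-type ventricles. The gene col1a1a, for the main fibrillar collagen of scar and connective tissue, had 80051 and 31894 in ccn2a-/- ventricles, against 39037 and 60766 in wild-type ventricles. Its duplicate col1a1b had 90973 and 37056 in ccn2a-/- ventricles, against 46262 and 74525 in wild-type ventricles. None of these 3 genes separated the genotypes (limma, adjusted p from 0.893 to 0.992).

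Beside the Cyp2 pattern stand the values of cell type markers. Of 6 fibroblast markers, 5 were highest in mutant replicate 1, against 33.9% of all genes tested, and 3 held the same library order, and their sum was 222673 and 103076 in the mutants and 125085 and 163201 in wild type. Hepatocyte genes, whose tissue is rich in P450 transcripts, were highest in mutant replicate 1 for 11 of 14 in the table. The order was held by 4, and 8 of the 14 were below the mean of 10. Of the 6 tested, 3 were highest in mutant replicate 1 and 0 held the order, against 33.9% and 6.55% of all genes tested. Several of the 14 were at trace level, among them fabp10a at 19 and 1 in the mutants and 1 and 3 in wild type, and apoa1b at 48 and 0 in the mutants and 4 and 2 in wild type. The abundant tfa had 4929 and 4350 in the mutants and 5313 and 8096 in wild type. The gene c3a.1 had 152 and 286 in the mutants and 623 and 644 in wild type. Of the 6 tested, these 2 were lower in the mutants by log2 fold change and 4 were higher. The hepatocyte sum, most of it tfa, was 5714 and 5088 in the mutants and 6367 and 9153 in wild type. Mutant replicate 1 was also the highest library for 7 of 8 erythrocyte and 5 of 8 exocrine pancreas genes, none of which held the order. Mutant replicate 1 was highest too for 2 of 4 kidney tubule genes, 1 of which held the order. Of 5 enterocyte genes it was highest for 1, slc15a1b, level with wild-type replicate 2 at 16. The exocrine pancreas sum went the other way, at 410 and 328 in the mutants and 893 and 1379 in wild type. Most of its wild-type part was ctrb1, at 98 and 82 in the mutants and 704 and 1179 in wild type. The part of these cell types in the Cyp2 values was not tested. In bulk tissue fewer cells of a type and less RNA per cell cannot be told apart.

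**Figure D3:**
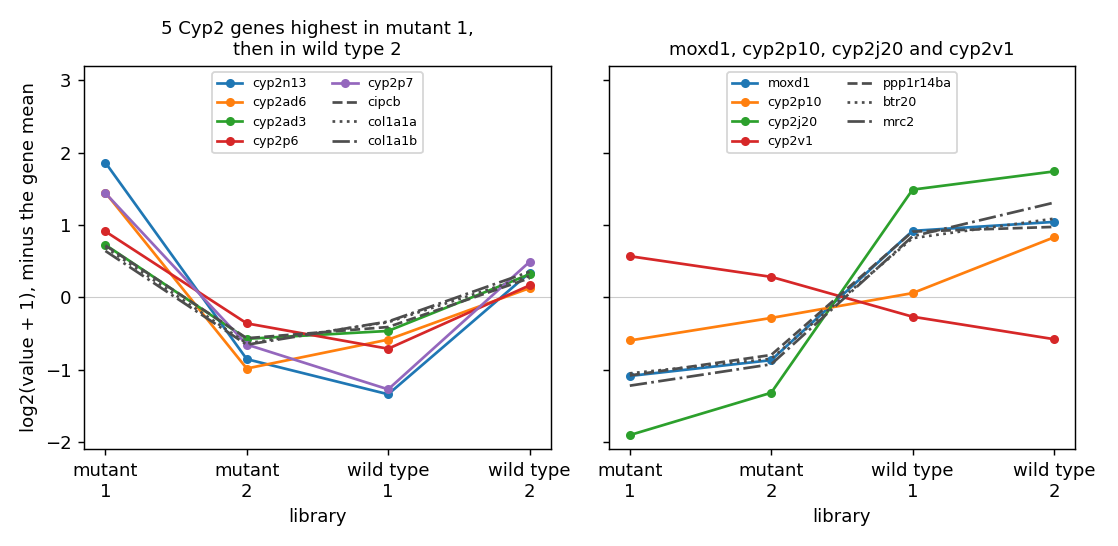
Profiles over the 4 libraries, as log2(value + 1) minus the gene's mean, for 5 Cyp2 genes on the left and for moxd1, cyp2p10, cyp2j20 and cyp2v1 on the right; grey broken lines are the 3 genes nearest to cyp2ad3 (left) and to moxd1 (right). The left-hand genes peak in mutant replicate 1 and again in wild-type replicate 2. In the right-hand genes the genotypes do not overlap, with cyp2v1 higher in the mutants and the others lower. The rise of cyp2p10 is gradual and largest between wild-type replicates 1 and 2.

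Summed over the 8 Cyp2 genes, the normalised counts were 3581 and 1544 in ccn2a-/- ventricles, against 1387 and 2270 in wild-type ventricles. The means were 2563 ± 1440 in the mutants and 1829 ± 624 in wild type (SD, n = 2 each), and the groups overlapped (exact permutation test, 2-sided p = 0.667, where the smallest p that 4 libraries allow is 0.333). The log2 ratio of the means changed sign without mutant replicate 1, to -0.24. Summing cyp2p7 with the 3 models inside it on its strand, an alternative chosen after seeing the data, gave 514 and 174 in ccn2a-/- ventricles, against 173 and 404 in wild-type ventricles. Over the 4 libraries cyp2p7 itself is the largest part of that sum, so its order of libraries says nothing of reads shared between the models.

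An unadjusted p under 0.05 was reached by 33.3% of the 9 genes, and their median absolute log2 fold change was 0.849. This share counts cyp2j20, which entered the test only through its wild-type values and could hardly show anything but a lower mutant level. Whether the 9 genes reached that p more often than the genes around them was not tested. A further 31 genes of the table start within 1 Mb of ccn2a and 25 of them were tested. None of the 25 reached an unadjusted p under 0.05 or passed (limma), against 12.8% of genes on other chromosomes, and their median absolute log2 fold change was 0.268, against 0.369 on other chromosomes. The groups did not overlap for 14 of the 25, against 52.3% of all genes tested. On chromosome 20 an unadjusted p under 0.05 was reached by 16.4% of 122 genes between 1 and 5 Mb from ccn2a and by 14.1% of 511 genes beyond.

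The 4 of these 25 with the smallest p were si:dkeyp-117h8.4, epha7, serac1 and hook1. The ephrin receptor gene epha7, the next gene tested beyond moxd1, had 286 and 196 in ccn2a-/- ventricles, against 335 and 384 in wild-type ventricles. The gene hook1, whose product links cargo to microtubules and which borders cyp2n13, had 35 and 24 in ccn2a-/- ventricles, against 15 and 12 in wild-type ventricles. The unnamed gene si:dkeyp-117h8.4 had 34 and 41 in ccn2a-/- ventricles, against 64 and 73 in wild-type ventricles, and serac1 had 240 and 214 in ccn2a-/- ventricles, against 167 and 145 in wild-type ventricles. Their adjusted p lay between 0.387 and 0.401 (limma). Whatever chromosome 20 sequence the mutants share around ccn2a cannot be told apart from the loss of ccn2a with these libraries.

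**Figure D4:**
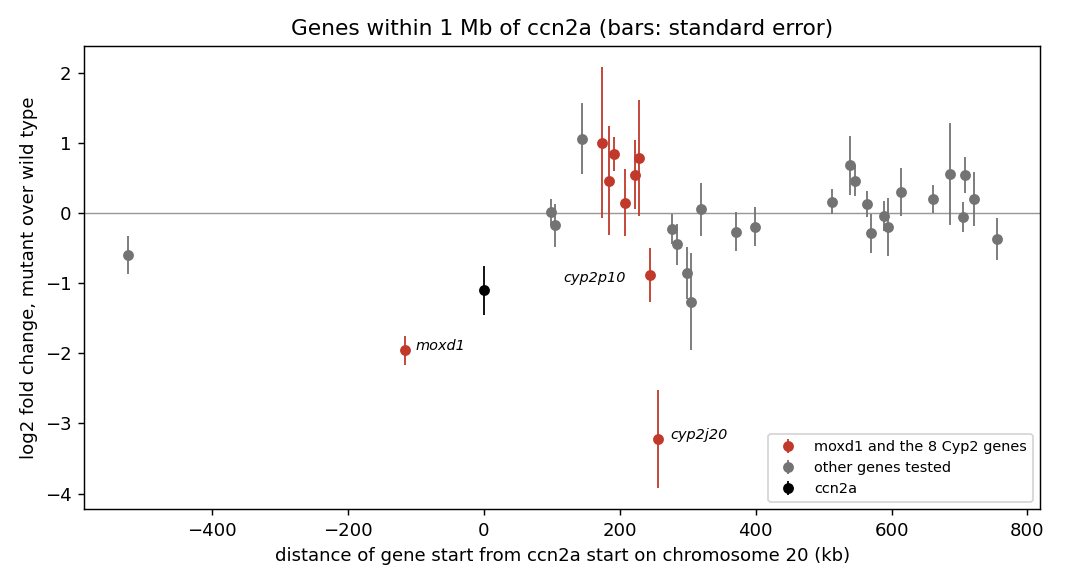
Log2 fold change, mutant over wild type, with its standard error, of each tested gene within 1 Mb of ccn2a, against the distance of its start from that of ccn2a in kb. Red points are moxd1 and the 8 Cyp2 genes, the black point is ccn2a and grey points are other genes; moxd1 at -1.96 and cyp2j20 at -3.23 lie far below their neighbours, and the Cyp2 genes between cyp2n13 and cyp2p7 lie above 0 with wide errors for all but cyp2v1.

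Among P450 genes elsewhere in the genome, taken by a symbol of cyp and a number, 52 were in the table and 40 were tested. Of these 40, 24 were higher and 16 lower in the mutants (median log2 fold change 0.31). None passed (limma), and 7 of the higher and 3 of the lower had an unadjusted p under 0.05, against 5.89% and 6.93% of all genes in those directions. On the higher side with the smallest p were cyp2aa4, at 73 and 112 in the mutants and 26 and 18 in wild type, cyp2aa11 (ENSDARG00000103456), at 98 and 101 in the mutants and 47 and 39 in wild type, and cyp3c4, at 152 and 137 in the mutants and 68 and 72 in wild type. Lower in the mutants were cyp46a1.4, named after the mammalian cholesterol 24-hydroxylase, at 130 and 151 in the mutants and 397 and 285 in wild type, cyp2aa7, at 289 and 211 in the mutants and 416 and 549 in wild type, and cyp2k8, at 19 and 15 in the mutants and 32 and 55 in wild type. A second tested entry under the symbol cyp2aa11 went the other way, at 16 and 14 in the mutants and 17 and 20 in wild type. The cyp2aa genes form another Cyp2 cluster, on chromosome 23, and close copies there can share reads too.

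The partners that serve P450 enzymes were split in direction too. Of 13 electron donors and partners tested, 7 were higher and 6 lower in the mutants (median log2 fold change 0.00020), and none passed (limma). Against 12.8% of all genes tested, 1 of the 13 had an unadjusted p under 0.05 (limma). That was cyb5b, the cytochrome b5 of the outer mitochondrial membrane, at 244 and 292 in ccn2a-/- ventricles, against 384 and 512 in wild-type ventricles, followed by the ferredoxin gene fdx1, at 915 and 711 in ccn2a-/- ventricles, against 606 and 625 in wild-type ventricles. Of 21 xenobiotic receptors and conjugating enzymes, 14 were higher and 7 lower (median 0.31), with mgst3a at 2769 and 1921 in ccn2a-/- ventricles, against 1524 and 1361 in wild-type ventricles, and the quinone reductase gene nqo1 at 239 and 164 in ccn2a-/- ventricles, against 146 and 67 in wild-type ventricles. None of the 21 passed (limma), and 1 had an unadjusted p under 0.05, against 12.8% of all genes tested.

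Arachidonic acid, the substrate of mammalian CYP2J enzymes, is released by phospholipases and shared with the cyclooxygenase and lipoxygenase routes. Of 16 genes of these routes, 7 were higher and 9 lower in the mutants (median log2 fold change -0.08). None passed and 5 had an unadjusted p under 0.05 (limma), against 12.8% of all genes tested. The cytosolic phospholipase gene pla2g4ab had 420 and 247 in ccn2a-/- ventricles, against 148 and 134 in wild-type ventricles. Its relative pla2g4aa, named after its values were seen, went the other way, at 18 and 151 in the mutants and 202 and 243 in wild type. The thromboxane synthase gene tbxas1, itself for a P450 but left out of the P450 count by its symbol, had 625 and 439 in ccn2a-/- ventricles. It had 306 and 235 in wild-type ventricles. The soluble epoxide hydrolase gene ephx2, named after its values were seen, encodes the enzyme that breaks down epoxyeicosatrienoic acids, and had 865 and 733 in ccn2a-/- ventricles, against 1177 and 1847 in wild-type ventricles (log2 fold change -0.89, SE 0.269; limma, adjusted p = 0.381).

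Genes that handle copper, the metal used by the enzyme class of moxd1, were split in direction. Of 10 tested genes for copper monooxygenases and copper supply, 5 were higher and 5 lower in the mutants (median log2 fold change 0.09). In this list 0 passed or had an unadjusted p under 0.05 (limma), against 12.8% of all genes tested for the latter. The peptidylglycine monooxygenase gene pam, named after its values were seen as the relative of moxd1 in this list, had 2782 and 2425 in ccn2a-/- ventricles, against 2117 and 2344 in wild-type ventricles. The copper pump gene atp7a had 586 and 936 in ccn2a-/- ventricles, against 1148 and 860 in wild-type ventricles, and the ceruloplasmin gene cp had 19 and 14 in ccn2a-/- ventricles, against 7 and 11 in wild-type ventricles.

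**Figure D5:**
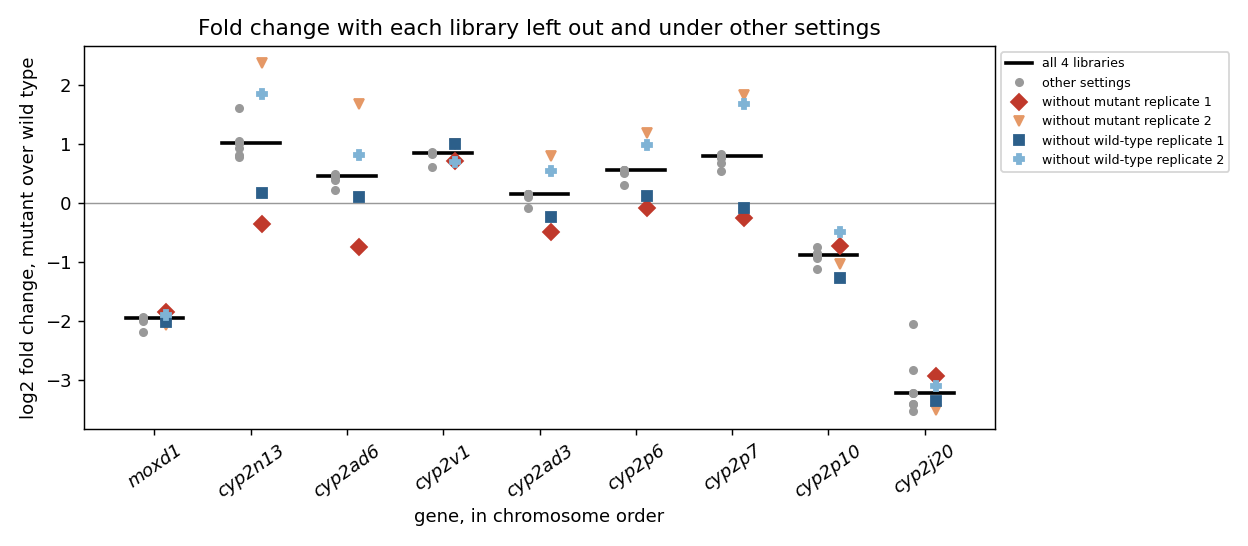
Log2 fold change, mutant over wild type, of each gene with all 4 libraries (black line), with each library left out (coloured symbols) and under other processing settings (grey circles). The symbols stay on one side of 0 for moxd1, cyp2v1, cyp2p10 and cyp2j20, and cross it for the other 5 Cyp2 genes.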

How the data were processed

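Poly(A) RNA was sequenced with a stranded kit, per the labels' protocols. The submitters' processing notes name STAR 2.4.0a, featureCounts 1.4.5-p1 from Subread, DESeq2 1.6.2 and the build GRCz10 (danRer10) but no settings. The deposited values are whole-number scores, read counts divided by a size factor and rounded by the authors, as their spacing shows. The spacing gave factors of 0.874 and 0.946 for the mutants and 0.952 and 1.32 for the wild types, in replicate order. Whole reads could not be recovered where the factor is above 1.

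The genotype term was fitted by limma-trend (limma 3.58.1, R 4.3.3) to log2(value + 1), a scale that understates changes of low genes, for 16730 genes with a mean of 10 or more. P-values were adjusted by Benjamini-Hochberg over all of them, and the script was tested on simulated data. Transcript lengths were not used here, so levels are not compared between genes. Figures used matplotlib 3.10.9. The genes and lists were chosen with earlier results of these data known. Named genes were the 9, ccn2a, overlapping models, the 4 neighbours, 6 other P450 genes and 2 genes per pathway list with the smallest p, and the 3 nearest profiles. Lists were matched by symbol, or by current symbol of the Ensembl ID. Alternatives varied the pseudocount, filter, scaling, model, block and libraries.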

Additional observations from a re-analysis of the deposited data

How the results depend on the processing

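Over 12 alternatives the genes moxd1, cyp2v1, cyp2p10 and cyp2j20 kept their direction, and none of the 9 genes passed in any of them (smallest adjusted p = 0.158, for moxd1), nor did any of the other genes tested. With libraries left out in turn, the log2 fold change ran from -0.50 to 0.80 for cyp2ad3, -0.76 to 1.68 for cyp2ad6, -0.35 to 2.36 for cyp2n13, -0.087 to 1.18 for cyp2p6 and -0.26 to 1.83 for cyp2p7. The log2 ratio of the Cyp2 sum ran from -0.24 to 0.97. The number of the 9 genes with all remaining mutant libraries below all remaining wild types ran from 3 to 5. The 5 came without mutant replicate 1, where only mutant replicate 2 had to lie below both wild types. That condition is easier to meet, and the share of all genes meeting it was not computed, so nothing is concluded from the 5. When 1 library is left out its partner is assumed to vary like the other group. For moxd1, cyp2v1, cyp2p10 and cyp2j20 the groups did not overlap, so leaving out 1 library could not reverse their direction. The cyp2ad3 fold change was -0.091 with values rescaled to the same total, which moved the median of all genes to -0.237. Under that scaling moxd1 was at -2.20. A mean of 50 or more left cyp2n13 and cyp2j20 untested. Same-numbered replicates did not deviate together (r = 0.00406 across genes) and share only a number. With a replicate block moxd1 was at -1.96 (limma, adjusted p = 0.164), 0 genes passed and 2655 had an unadjusted p under 0.05, against 2145 without the block. Without mutant replicate 1 that count was 648, and without wild-type replicate 2 it was 448. The cause of these shifts was not tested. Depth limits cyp2j20 and cyp2n13 most, with under 50 normalised counts in each library.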

Other observations

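Outside family 2, the P450 genes held 2 groups of relatives that were higher in both mutant libraries, named after their values were seen. Of all genes tested, 26.6% had both mutants above both wild types. All 4 tested genes of family 3 were higher in the mutants by log2 fold change (median 0.96), from cyp3c1, at 1981 and 1478 in the mutants and 986 and 1323 in wild type, to the scarce cyp3c2, at 23 and 39 in the mutants and 6 and 11 in wild type. On chromosome 9, cyp27a1.4 had 102 and 98 in ccn2a-/- ventricles, against 57 and 25 in wild-type ventricles, and its neighbour in name cyp27a7 had 273 and 258 in ccn2a-/- ventricles, against 200 and 110 in wild-type ventricles. In mammals CYP27A1 hydroxylates sterols on the way to bile acids. None of these genes passed (limma, over all genes tested). The family 3 genes lie in one stretch of chromosome 3, so they cannot be counted as independent of each other, and close copies there can share reads.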
